A study of Mus musculus with 25 samples.

Results

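Solute carriers (Slc genes) form a large group of membrane transporters and move ions, nutrients, metals and metabolites across the cell surface and across the membranes of mitochondria, lysosomes, the endoplasmic reticulum and the Golgi. The genes described here are those whose mouse symbol starts with Slc and a digit, that code for protein, and whose mean level over the 25 libraries was at least 2 FPKM, the number of fragments per kilobase of transcript, scaled to the mapped fragments of the library. Of 370 protein-coding Slc genes in a table of 49452 gene identifiers, 204 met this rule, 161 had a mean above 0 and below 2 FPKM, and 5 were listed at 0 in all libraries. The members fell into 46 families by the number in their symbol, of which 14 had at least 5 members and 13 had 1. The symbol decided membership, so 4 members (Slc9a3r1, Slc9a3r2, Slc4a1ap and Slc7a6os) are named after a transporter without being one. At the lower limit, Slc25a32 (2.00 FPKM) and Slc23a3 (2.08 FPKM) were inside, and Slc27a3 (1.97 FPKM) and Slc25a53 (1.92 FPKM) were outside. Slc4a11, Slc16a6 and Slc25a32 reached the limit only through the genotype in which each was highest.

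In the colon, absorptive cells take up sodium and chloride from the lumen with paired exchangers, take up short-chain fatty acids made by bacteria with monocarboxylate transporters, and move nutrients and bile acids to the blood side through a further set of carriers. Families differ in where they act: most of family 25 sits in the inner mitochondrial membrane, many of family 35 carry nucleotide sugars into the Golgi and endoplasmic reticulum, and families 30 and 39 move zinc and manganese. All substrate groups below go by family number, so a group can hold members that act elsewhere or carry other substrates. Transporters of immune and stromal cells are read in the same RNA, since whole distal colon was sequenced.

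The mice were C57BL/6, 6 weeks old, kept free of specific pathogens on a chow diet, with 5 mice per genotype as separate biological replicates. Nemofl/fl mice carry loxP-flanked Nemo (Ikbkg), the regulatory subunit of the IKK complex, and served as the control. NEMOIEC-KO mice lack NEMO in intestinal epithelial cells, and the other 3 groups carry the same epithelial deletion together with Il12b-/-, Il12a-/- or Il23a-/-, which remove the p40, p35 or p19 subunit of IL-12 and IL-23. The study asked how loss of each subunit changes colon inflammation in NEMOIEC-KO mice. The Cre line and the form of the 3 cytokine alleles are not given in the sources used here.

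Ikbkg was at 9.08 ± 1.14 FPKM (SD, n = 5) in Nemofl/fl and at 3.34 to 4.08 FPKM on average in the 4 groups with the deletion, and the control did not overlap them. Il12b RNA was at 0.994 ± 0.223 FPKM in the libraries labelled Il12b-/- against 0.171 ± 0.0799 FPKM in NEMOIEC-KO, and Il12a RNA was at 1.2 ± 0.586 FPKM in those labelled Il12a-/- against 0.421 ± 0.313 FPKM. Il23a RNA was at 0.214 ± 0.0427 FPKM in those labelled Il23a-/- against 0.311 ± 0.308 FPKM. RNA of these 3 genes therefore does not check the labels, and each of these groups goes below by the label of its cytokine allele, as Il12b-labelled and so on. Summed FPKM per library ran from 653776 to 744280, and relative depth read from the lowest values ran from 0.702 to 1.16 of the median library. Absolute depth is unknown. By Xist and Y-linked RNA, females numbered 0 in Nemofl/fl, 1 in NEMOIEC-KO, 2 in the Il12b-labelled, 2 in the Il12a-labelled and 4 in the Il23a-labelled group. The library names carried 3 codes: all Nemofl/fl libraries and 3 of NEMOIEC-KO shared one, the other 2 NEMOIEC-KO libraries shared another with all Il12b- and Il12a-labelled and 4 Il23a-labelled libraries, and 1 Il23a-labelled library had its own.

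Il12b-labelled mouse 2 and Il12a-labelled mouse 1 stood apart from their groups. Over the 67 members that were lower in NEMOIEC-KO than in Nemofl/fl (below), the median difference from the control mean was -0.50 on the log2 scale in the first and -0.64 in the second. The other Il12b-labelled mice ran from -0.12 to -0.03, the other Il12a-labelled mice from -0.29 to -0.16 and the NEMOIEC-KO mice from -0.93 to -0.55. The 67 members were chosen for being lower in NEMOIEC-KO, so the NEMOIEC-KO medians are negative by that choice. For comparisons of these 2 groups with NEMOIEC-KO or Nemofl/fl, the counts and the named members whose call changed are given with and without the 2 mice. The 2 mice were picked after these levels were seen. Stronger differences from NEMOIEC-KO without them were favoured by that choice and are no independent support.

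Member levels ran from 2.00 to 908 FPKM, with a median of 11.9 FPKM. Of the members, 11 were at 100 FPKM or more on average, and the 10 highest held 43.03% of the FPKM summed over all 204. Slc25a5, the mitochondrial ADP/ATP carrier, was highest, followed by the mitochondrial phosphate carrier Slc25a3, the creatine transporter Slc6a8 and the chloride/bicarbonate exchanger Slc26a3. Slc44a4, Slc9a3r1, Slc25a39, Slc20a1, the GDP-fucose carrier Slc35c1 and the UDP-galactose carrier Slc35a2 completed the 10. Within a genotype, the median coefficient of variation of a member was 14%. The summed FPKM of all members was 7957 ± 727 (SD, n = 5) in Nemofl/fl, 6559 ± 411 in NEMOIEC-KO, 7454 ± 604 in the Il12b-labelled, 6975 ± 214 in the Il12a-labelled and 6653 ± 478 in the Il23a-labelled group.

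The first comparison asked how the colon of NEMOIEC-KO mice differed from that of Nemofl/fl mice. Of the 204 members, 67 fell and 22 rose, so that 43.6% passed the test. The test was limma on log2(FPKM + 0.5), two-sided, with p-values adjusted by Benjamini and Hochberg over all 19266 genes tested and a threshold of 0.05. The members' share was set beside 2 backgrounds and was not tested against them. Over all genes tested, 32.2% passed (11.9% higher and 20.3% lower), and over those with a mean of at least 2 FPKM, 36% passed. The median log2 fold change was -0.13 over the members and -0.08 over all genes tested. In 48 members all 5 NEMOIEC-KO mice were below all 5 Nemofl/fl mice, and in 18 members all were above, against 22.2% of all genes with groups that did not overlap. A change of at least 2-fold on this scale was reached by 18 that fell and 6 that rose. The scale understates changes of genes near 0.5 FPKM. In bulk tissue, fewer cells of a type and less RNA per cell cannot be told apart. With median-of-ratios scaling the split was 30 higher and 56 lower, so that 34.9% of the called members were higher in place of 24.7%. Within the library code that held all Nemofl/fl mice and 3 NEMOIEC-KO mice, 76 members passed. RNA of genes of the mitochondrial genome, without tRNAs, held 5.06 to 9.34% of the summed FPKM in the Nemofl/fl libraries and 2.64 to 4.79% in the NEMOIEC-KO libraries, without overlap, and its part in the result was not tested.

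**Figure D1:**
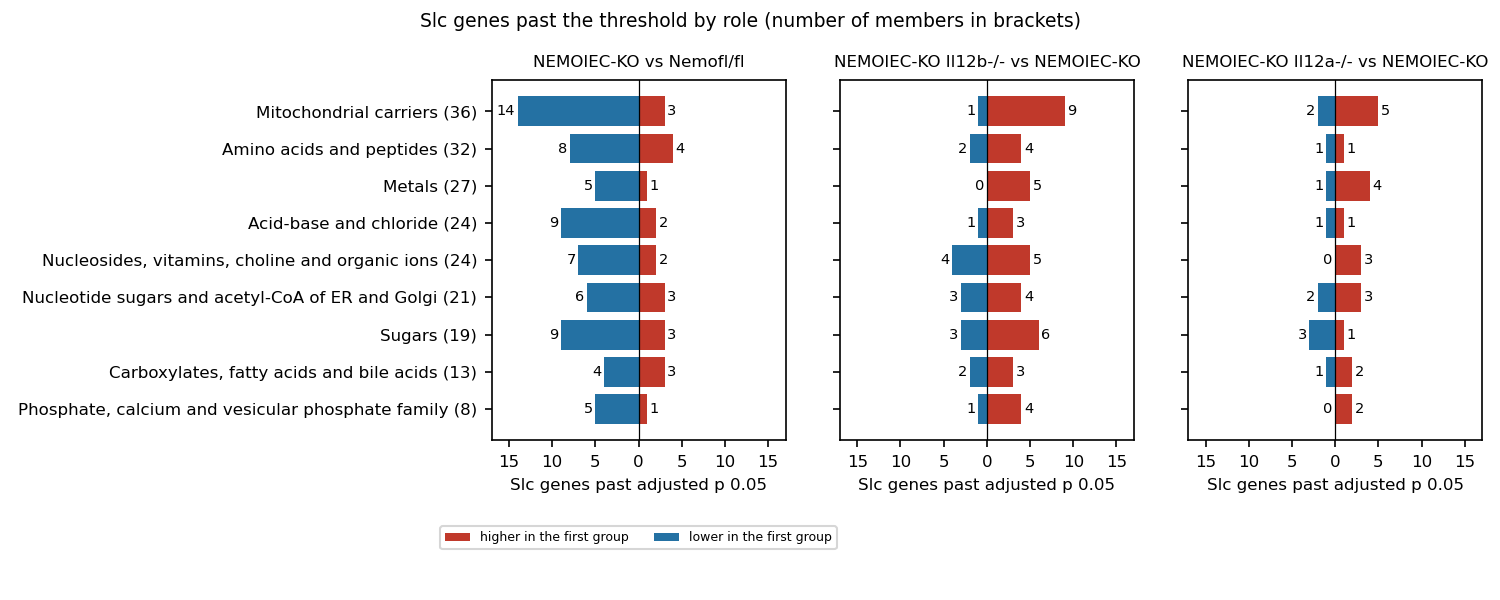
Slc genes past the limma threshold in 9 groups by substrate, for 3 comparisons; bars to the right count members higher in the first-named genotype and bars to the left count members lower in it (x axis, number of genes). In the first panel the lower count exceeded the higher count in all 9 groups, with 14 against 3 among the 36 mitochondrial carriers. Over all genes tested, 20.3% were lower and 11.9% higher in that comparison, so this direction is shared with the whole table. With median-of-ratios scaling the nucleotide sugar carriers alone went the other way, with 6 higher and 4 lower.

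Markers of several cell types moved with this comparison. The summed level of 8 markers of absorptive colonocytes was 3933 ± 777 FPKM (2680 to 4758) in NEMOIEC-KO and 6202 ± 376 FPKM (5637 to 6660) in Nemofl/fl, with 3 of the 8 higher and 3 lower. The summed level of 10 markers of epithelium was 13970 to 15800 FPKM against 11480 to 12480 FPKM, with 5 of the 10 higher. The summed level of 10 smooth muscle markers was 1833 to 5448 FPKM against 3278 to 11620 FPKM, with 7 of the 10 lower. Neutrophil markers summed to 9.72 to 559 FPKM against 1.22 to 8.27 FPKM (5 of 6 higher), and monocyte and macrophage markers to 176 to 457 FPKM against 126 to 168 FPKM (5 of 7 higher). T cell markers summed to 12.4 to 36.7 FPKM against 2.32 to 8.16 FPKM (5 of 5 higher), and plasma cell markers to 301 to 739 FPKM against 119 to 270 FPKM (4 of 4 higher). No listed marker was at 0 in every library. With the smooth muscle markers as a covariate 44 members passed. Among members reported here under the rule for naming, Slc26a3, Slc9a2, Slc12a7, Slc37a2, Slc5a8, Slc2a1, Slc15a1 and Slc1a4 did not pass. Neither did Slc7a7, Slc51b, Slc25a3, Slc25a45, Slc35c1, Slc35e4, Slc44a4 and Slc23a4. Members named outside that rule are not covered by this list, so their absence from it does not show that their calls held. With the epithelium markers as a covariate, whose summed levels did not overlap between the groups, 4 passed, namely Slc4a11, Slc25a22, Slc35f2 and Slc16a1. The part of these cell types in the results was not tested. Shares of all genes called under the alternative fits are not given in this report. Their member counts therefore do not show whether calls changed more among the members than over all genes.

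Among 24 members grouped by family as transporters of acid, base and chloride, 9 fell and 2 rose, or 45.8%, beside 32.2% of all genes. The grouping also holds Slc4a1ap, Slc9a3r1 and Slc9a3r2, which are not transporters, and Slc9a3r2 was among the 9 that fell. The summed level of the 24 was 413 to 685 FPKM in NEMOIEC-KO and 925 to 1733 FPKM in Nemofl/fl. Of these sums, Slc9a3r1 made up 162 and 208 FPKM on average. Slc26a3, on chromosome 12 at 31390871 to 31473917 (GRCm38), exchanges chloride for bicarbonate at the luminal face of colonocytes, and its loss in people causes chloride-losing diarrhoea. Its level was 353, 451, 474, 535 and 941 FPKM in the Nemofl/fl mice and 42.0, 131, 144, 168 and 173 FPKM in the NEMOIEC-KO mice. Every control mouse was above every NEMOIEC-KO mouse, and Slc26a3 fell by 2.13 on the log2 scale (SE 0.52, limma adjusted p = 0.00435). The sulfate transporter Slc26a2 was at 95.0 to 221 FPKM in Nemofl/fl and at 19.7 to 63.3 FPKM in NEMOIEC-KO, with a limma adjusted p of 0.00116. The basolateral sodium-bicarbonate cotransporter Slc4a4 was at 12.5, 13.3, 16.5, 16.6 and 19.6 FPKM in Nemofl/fl and at 2.61, 4.26, 5.91, 6.29 and 7.07 FPKM in NEMOIEC-KO. Its groups did not overlap, and it fell by 1.55 on the log2 scale (limma adjusted p = 0.00171). The other transporters of this group named here that fell were the sodium/proton exchanger Slc9a2 (59.0 ± 8.89 to 31.7 ± 9.66 FPKM), the potassium-chloride cotransporter Slc12a7, and the anion exchanger Slc4a2. The call of Slc9a2 was lost without control mouse 1 or 4 or NEMOIEC-KO mouse 3 (limma adjusted p = 0.0512, 0.052 and 0.0985).

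Among the 2 that rose was Slc4a11. Slc4a11, on chromosome 2 at 130684113 to 130697519, belongs to the bicarbonate transporter family and is known from the corneal endothelium. It was at 0.247, 0.385, 0.417, 0.506 and 0.581 FPKM in Nemofl/fl and at 2.61, 4.79, 5.09, 6.70 and 9.72 FPKM in NEMOIEC-KO. No values overlapped, the ratio of the means was 13.5, and the log2 fold change was 2.67 (SE 0.45, limma adjusted p = 0.000245). Its mean over all libraries passed 2 FPKM through the groups in which it was high, which bears on its choice as a member. Members without a call included Slc9a3, the main sodium/proton exchanger of absorptive cells, at 0.832 to 13.1 FPKM in Nemofl/fl and 0.600 to 7.46 FPKM in NEMOIEC-KO. Its 95% interval on the log2 scale ran from -2.14 to 0.59. The basolateral sodium-potassium-chloride cotransporter Slc12a2 (24.6 ± 6.28 and 29.1 ± 3.00 FPKM) and the anion exchanger Slc26a6 (6.59 ± 1.27 and 6.50 ± 1.39 FPKM) were also not called.

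Of 8 members that carry phosphate or calcium or belong to the vesicular phosphate family, 5 fell and 1 rose. That was 75%, beside 32.2% of all genes, and their median log2 fold change was -0.70. Slc20a1, a sodium-phosphate cotransporter of the cell surface, on chromosome 2 at 129198764 to 129211616, had the highest mean of the 8 in both genotypes. Its level was 121, 192, 260, 279 and 385 FPKM in Nemofl/fl and 22.6, 49.5, 63.5, 67.7 and 89.4 FPKM in NEMOIEC-KO. The lowest control was above the highest NEMOIEC-KO mouse, and Slc20a1 fell by 2.1 on the log2 scale (SE 0.39, limma adjusted p = 0.000548). The others that fell were its relative Slc20a2, the mitochondrial sodium/calcium exchanger Slc8b1, the lysosomal sialic acid carrier Slc17a5 and the potassium-dependent sodium/calcium exchanger Slc24a3. Slc17a4, an organic anion transporter of the intestine, rose by 1.00 on the log2 scale. Apart from Slc20a1, these members lie outside the rule for naming and were named after their values were seen, as were Slc2a4, Slc2a5, Slc5a6, Slc6a4, Slc7a9, Slc16a6, Slc48a1, Slc39a3, Slc30a6, Slc41a2, Slc39a11, Slc25a1, Slc35b1, Slc35f6 and Slc37a4.

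Of 19 members grouped as sugar transporters by family, 9 fell and 3 rose, or 63.2%, beside 32.2% of all genes. The grouping goes by family, so it also holds carriers of other substrates, among them Slc5a8, which takes up butyrate and other monocarboxylates with sodium, and Slc5a6, which takes up biotin and pantothenate. Slc5a8 was at 41 to 68.2 FPKM in Nemofl/fl and at 16.9 to 35.8 FPKM in NEMOIEC-KO, and Slc5a1, the sodium-glucose cotransporter, at 41.3 to 72.6 and 24.5 to 32.9 FPKM, with no overlap in either. Slc37a2, a phosphate-linked sugar phosphate exchanger of the endoplasmic reticulum, fell from 117 ± 47.2 to 32.9 ± 16.0 FPKM, a log2 fold change of -1.87. The fructose transporter Slc2a5 (2.64 to 5.39 against 0.504 to 1.75 FPKM) and the insulin-responsive glucose transporter Slc2a4 (29.2 ± 12.3 to 13.0 ± 4.93 FPKM) fell as well.

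The 3 that rose were Slc5a9, Slc45a3 and Slc2a1. Slc5a9, a sodium-dependent carrier of mannose and fructose, on chromosome 4 at 111875375 to 111902918, was at 2.18, 3.38, 3.54, 3.78 and 3.78 FPKM in Nemofl/fl and at 8.51, 8.96, 9.34, 11.8 and 25.2 FPKM in NEMOIEC-KO. No control reached the lowest NEMOIEC-KO mouse, and the log2 fold change was 1.69 (limma adjusted p = 0.00026). Slc2a1, the glucose transporter that supplies most tissues at rest, was at 54.8 to 72.3 FPKM in Nemofl/fl and at 70.5 to 104 FPKM in NEMOIEC-KO, the highest control lay above the lowest NEMOIEC-KO mouse, and it rose by 0.53 on the log2 scale (limma adjusted p = 0.00466).

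Of 32 members grouped as amino acid and peptide transporters, which include the non-transporter Slc7a6os, 8 fell and 4 rose, or 37.5%. That is near the 36% of all genes with a mean of at least 2 FPKM. Their median log2 fold change was -0.01, or 0.04 with median-of-ratios scaling. Slc15a1, the proton-coupled transporter of dipeptides and tripeptides, was at 87.7 to 120 FPKM in Nemofl/fl and at 9.48 to 66.4 FPKM in NEMOIEC-KO, without overlap. It passed the test (log2 fold change -1.52, limma adjusted p = 0.0172), but not without NEMOIEC-KO mouse 3, the lowest (limma adjusted p = 0.0672). Slc1a5, which takes up glutamine and other neutral amino acids, was at 98.2, 105, 112, 114 and 119 FPKM in Nemofl/fl and at 57.2, 62.2, 64.2, 69.3 and 71.0 FPKM in NEMOIEC-KO. All controls were above all NEMOIEC-KO mice, and Slc1a5 had a log2 fold change of -0.76 (SE 0.13, limma adjusted p = 0.000335). Slc6a14, a broad amino acid transporter, fell from 108 ± 57.8 to 46.5 ± 10.5 FPKM, and 1 control mouse at 208 FPKM was far above the other controls. The serotonin transporter Slc6a4 fell from 19.5 ± 3.73 to 8.42 ± 2.59 FPKM.

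The 4 that rose were Slc15a3, Slc7a9, Slc1a4 and Slc7a7. Slc15a3, a lysosomal peptide and histidine transporter of immune cells, was at 0.645, 0.697, 0.707, 0.760 and 0.825 FPKM in Nemofl/fl and at 1.93, 1.98, 3.56, 7.06 and 11.0 FPKM in NEMOIEC-KO. All NEMOIEC-KO mice were above all controls, the spread among them was wide, and the log2 fold change was 1.92 (limma adjusted p = 0.000986). The controls were below the limit of 2 FPKM, so Slc15a3 became a member through groups in which it was higher. That choice favours a rise over the controls. Slc7a9, the light chain of a cystine and dibasic amino acid transporter, rose from 3.24 ± 0.688 to 9.24 ± 4.62 FPKM. Slc7a7 rose by 0.41 on the log2 scale, and its difference was -0.005 with the epithelium markers as a covariate. Leaving out any 1 control mouse also ended its call (limma adjusted p = 0.0558 to 0.0901), as did leaving out NEMOIEC-KO mouse 2, 3 or 4 (limma adjusted p = 0.0698, 0.158 and 0.113). The neutral amino acid exchanger Slc1a4 was at 2.35 to 3.13 FPKM in Nemofl/fl and at 3.17 to 6.01 FPKM in NEMOIEC-KO, and its call was lost without control mouse 2 or NEMOIEC-KO mouse 3 or 4 (limma adjusted p = 0.0631, 0.0984 and 0.0563). Slc3a2, the heavy chain that carries several amino acid transporters to the surface, was at 45.7 ± 5.66 and 47.4 ± 3.41 FPKM and was not called.

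Of 13 transporters of carboxylates, fatty acids and bile acids, 4 fell and 3 rose, or 53.8%, beside 32.2% of all genes. Slc16a1, a proton-linked transporter of lactate, pyruvate and butyrate on chromosome 3 at 104638668 to 104658462, was at 75.9, 83.7, 84.7, 89.1 and 89.9 FPKM in Nemofl/fl and at 31, 42.3, 54.2, 55.3 and 70.3 FPKM in NEMOIEC-KO. The groups did not overlap, and Slc16a1 fell by 0.79 on the log2 scale (SE 0.14, limma adjusted p = 0.000291). Its relative Slc16a3, the form known for lactate export from glycolytic cells, went the other way. Slc16a3 was at 8.20, 11.5, 11.7, 12.3 and 13.0 FPKM in Nemofl/fl and at 21.4, 21.7, 26.1, 28.5 and 44.1 FPKM in NEMOIEC-KO. It rose by 1.25 on the log2 scale (SE 0.27, limma adjusted p = 0.00154), again without overlap. Slc51b, the beta subunit of the basolateral bile acid exporter, on chromosome 9 at 65412714 to 65422955, was at 6.96, 10.3, 13.6, 14.2 and 15.8 FPKM in Nemofl/fl and at 19.8, 32.7, 32.9, 66.9 and 68.8 FPKM in NEMOIEC-KO. It rose by 1.72 on the log2 scale (SE 0.40, limma adjusted p = 0.00296). Slc51b overlaps Rasl12 on the opposite strand (6.81 FPKM on average), as Slc15a3, Slc20a1, Slc37a2, Slc7a7, Slc4a2 and Slc29a1 overlap other genes, and the strand setting of the authors' counting is not given in the sources used here. The others called that fell were Slc16a11 (10.1 ± 0.832 to 2.91 ± 1.04 FPKM), the fatty acid carrier Slc27a1 and Slc16a13 (the latter not within 1 library code, limma adjusted p = 0.0781). Slc16a6 rose, with means of 1.40 FPKM in Nemofl/fl and 2.40 FPKM in NEMOIEC-KO. It met the limit of 2 FPKM only through groups in which it was high, which favours a rise over the controls.

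The promoters of Slc30a10, Slc16a3 and Slc51b are shown as examples that hold a motif, chosen after the matches were seen. Of 12 promoters of members with the largest calls between NEMOIEC-KO and Nemofl/fl, 7 had no match to any of 6 motifs searched, that of Slc26a3 among them, and those of Slc20a1 and Slc35e3 also had one. Slc4a11, Slc15a3, Slc5a9 and Slc26a2, also among the largest calls, were not among the 12. Each run is the 250 bases before the RefSeq start (GRCm38.p6), written 5′ to 3′ on the gene's strand. Capitals mark the core of the hypoxia response element (NACGTG, either strand) in the first and second and the STAT-binding GAS motif (TTCNNNGAA) in the third. They lie at chr1:185454598-185454847 (plus strand), chr11:120948817-120949066 (plus strand) and chr9:65422774-65423023 (minus strand). The GENCODE gene starts farther upstream than the RefSeq start in Slc16a3 and Slc51b, so that 250 and 182 of the 250 bases lie inside the gene as GENCODE gives it, the matches included. For Slc26a3, Slc23a4 and Slc16a11, which had no match, all 250 bases also lie inside the GENCODE gene. The absence of a match in these says nothing of the bases before the GENCODE start.
Slc30a10: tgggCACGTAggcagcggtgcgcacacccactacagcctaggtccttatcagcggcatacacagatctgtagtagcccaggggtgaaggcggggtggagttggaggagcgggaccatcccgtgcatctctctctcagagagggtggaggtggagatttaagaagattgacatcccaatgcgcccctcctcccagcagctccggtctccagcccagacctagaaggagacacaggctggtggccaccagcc
Slc16a3: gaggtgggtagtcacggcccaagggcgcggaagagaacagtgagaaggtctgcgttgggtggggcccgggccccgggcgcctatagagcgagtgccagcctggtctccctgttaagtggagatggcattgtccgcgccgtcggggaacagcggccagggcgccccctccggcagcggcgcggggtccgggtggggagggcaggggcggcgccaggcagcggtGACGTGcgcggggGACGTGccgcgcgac
Slc51b: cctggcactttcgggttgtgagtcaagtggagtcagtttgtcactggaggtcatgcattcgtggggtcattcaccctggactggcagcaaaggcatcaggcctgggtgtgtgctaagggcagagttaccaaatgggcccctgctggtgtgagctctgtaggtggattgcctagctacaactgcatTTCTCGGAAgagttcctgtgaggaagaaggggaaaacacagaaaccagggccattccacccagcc
The marked match lay 246 bases before the start on the opposite strand in Slc30a10, 28 and 15 bases before it in Slc16a3, and 65 bases before it in Slc51b. A promoter was found for 157 of the 204 members. NACGTG was present in 22.3% of these and in 16.5% of all 32851 promoters, and TTCNNNGAA in 4.46% and 7.02%. The match is a description of letters and not of a bound site.

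Of 27 metal transporters, 5 fell and 1 rose, or 22.2%, which is below the 32.2% of all genes. Their median log2 fold change was -0.05, or 0.01 with median-of-ratios scaling. Slc30a10, on chromosome 1 at 185454848 to 185468762, exports manganese from cells and had the largest log2 fold change of any member. Its level was 3.31, 7.21, 8.91, 9.66 and 10.3 FPKM in Nemofl/fl and 0.0665, 0.1, 0.153, 0.174 and 0.315 FPKM in NEMOIEC-KO. Every control mouse was above every NEMOIEC-KO mouse, the ratio of the means was 48.7, and Slc30a10 fell by 3.58 on the log2 scale (SE 0.61, limma adjusted p = 0.000244). The other 4 that fell were the heme transporter Slc48a1, the zinc transporters Slc39a3 and Slc30a6, and the magnesium transporter Slc41a2. Slc39a11 rose from 27.7 ± 4.79 to 39.5 ± 6.09 FPKM. The iron exporter Slc40a1 was at 86.9 ± 15.6 and 79.0 ± 26.7 FPKM and was not called, with a 95% interval from -0.67 to 0.28 on the log2 scale. The zinc importer Slc39a4 was at 42.3 to 62.8 FPKM in Nemofl/fl and at 59.6 to 119 FPKM in NEMOIEC-KO, with a limma adjusted p of 0.0912. Slc11a1, the divalent metal transporter of macrophage phagosomes, was at 1.32 to 2.51 and 1.15 to 7.66 FPKM, and its groups overlapped.

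Of 36 mitochondrial carriers, 14 fell and 3 rose, or 47.2%, beside 32.2% of all genes. The median of their log2 fold changes was -0.19. Slc25a34 fell from 24.8 ± 5.08 to 7.30 ± 3.10 FPKM. Slc25a42, the coenzyme A carrier, was at 9.49, 10.2, 11.3, 11.5 and 13.4 FPKM in Nemofl/fl and at 2.45, 3.70, 4.91, 5.05 and 5.61 FPKM in NEMOIEC-KO. It fell by 1.31 on the log2 scale (limma adjusted p = 0.000171), with no overlap. Slc25a23, the ATP-magnesium/phosphate carrier, was at 13.5 to 25.9 FPKM in Nemofl/fl and at 6.79 to 11.1 FPKM in NEMOIEC-KO, and it overlaps Crb3 on the opposite strand, at 120 FPKM on average. The phosphate carrier Slc25a3, the second most abundant member, fell by 0.28 on the log2 scale, a call that was lost with median-of-ratios scaling and without NEMOIEC-KO mouse 3 (limma adjusted p = 0.0502). The ADP/ATP carrier Slc25a5, the most abundant, was not called (95% interval -0.49 to -0.02, limma adjusted p = 0.0861). The 3 that rose were the glutamate carrier Slc25a22, Slc25a45 and the citrate carrier Slc25a1. Slc25a22 was at 16.4, 17.4, 18.3, 20.8 and 22.5 FPKM in Nemofl/fl and at 29.5, 30.7, 32.2, 32.8 and 36.7 FPKM in NEMOIEC-KO. It had the lowest adjusted p of any member in this comparison (limma adjusted p = 6.32e-05, log2 fold change 0.75).

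Of 24 transporters of nucleosides, vitamins, choline and organic ions, 7 fell and 2 rose, or 37.5%. That is near the 36% of all genes with a mean of at least 2 FPKM. Slc29a1, the equilibrative nucleoside transporter, was at 22.8 to 45.4 FPKM in Nemofl/fl and at 17.1 to 21.6 FPKM in NEMOIEC-KO, without overlap. The 2 that rose were Slc44a4, a thiamine pyrophosphate transporter of the colon (242 ± 35.6 to 327 ± 26.9 FPKM), and Slc23a4 of the ascorbate transporter family. The call of Slc44a4 was lost with quantile normalization, within 1 library code and without control mouse 2 (limma adjusted p = 0.0595). The carnitine transporter Slc22a5 was at 9.97 ± 0.705 and 8.99 ± 0.935 FPKM and was not called.

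Of 21 carriers of nucleotide sugars and acetyl-CoA, 6 fell and 3 rose, or 42.9%, beside 32.2% of all genes. Slc35e3 was at 8.14, 8.18, 8.90, 10.1 and 10.2 FPKM in Nemofl/fl and at 1.62, 1.75, 2.04, 2.49 and 2.72 FPKM in NEMOIEC-KO. It fell by 1.88 on the log2 scale (limma adjusted p = 0.000105), with no overlap. Slc35c1, which brings GDP-fucose into the Golgi, rose from 92.0 ± 7.66 to 131 ± 19.2 FPKM, and Slc35b1, an ATP carrier of the endoplasmic reticulum, from 45.7 ± 3.73 to 75.4 ± 7.75 FPKM. Slc35f6 was the third of those that rose. The call of Slc35c1 was lost without NEMOIEC-KO mouse 3 (limma adjusted p = 0.0583), and with median-of-ratios scaling 6 members of this group were higher and 4 lower.

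By family number, the median log2 fold change was lowest in family 5 (sodium-glucose family, -0.83, with 3 of 5 lower and 1 higher) and family 16 (monocarboxylates, -0.54, with 3 of 6 lower and 2 higher). Family 2, the facilitative sugar carriers, had a median of -0.40, with 4 of 7 lower and 1 higher. Family 7, the amino acid exchangers together with Slc7a6os, had the highest median (0.18), with 2 of 7 higher and none lower. Families 30 and 39, the zinc and manganese carriers, had medians of -0.05 (0.01 with median-of-ratios scaling) and -0.08. In family 30, 2 of 7 were lower and none higher, and in family 39, 1 of 11 was lower and 1 higher. Over all genes tested, 20.3% were lower and 11.9% higher. Families were not tested against each other or against these shares.

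**Figure D2:**
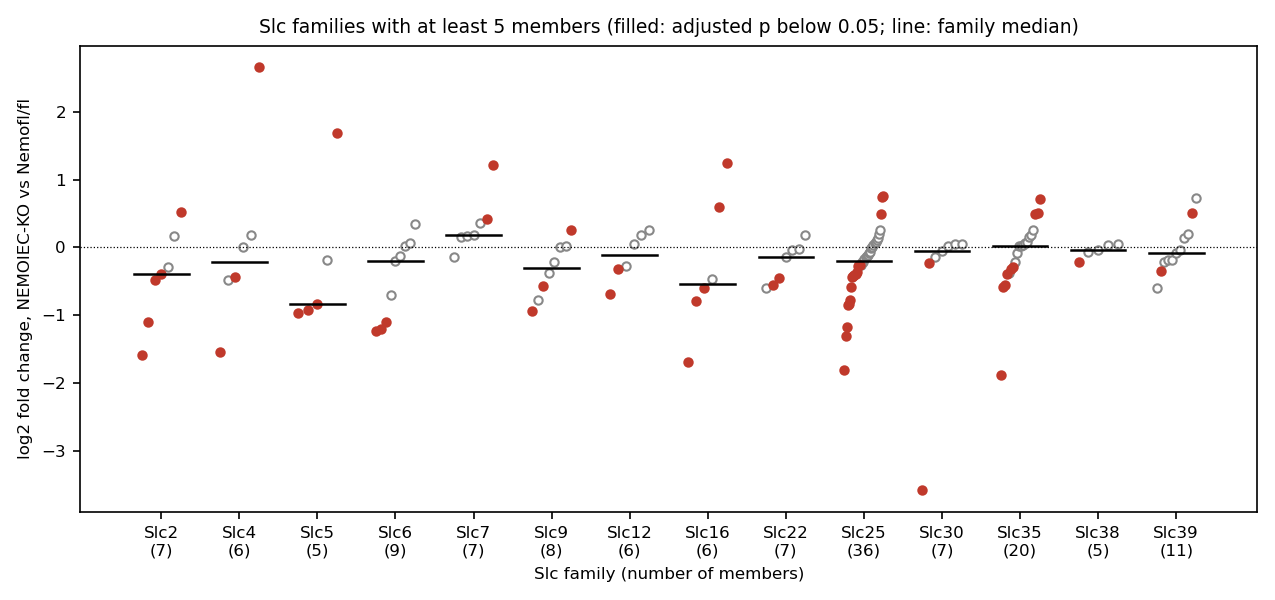
Log2 fold change of each Slc gene in NEMOIEC-KO against Nemofl/fl mice, by family, for the families with at least 5 members; each point is a gene, and the line marks the family's median. Family 5 had a median of -0.83 and family 7 one of 0.18.

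The second comparison asked what loss of p40 does in NEMOIEC-KO mice. In Il12b-labelled mice 43 members were higher and 17 lower than in NEMOIEC-KO, or 29.4% of the 204, against 19.9% of all genes called (14% higher and 5.94% lower). Of all genes with a mean of at least 2 FPKM, 23.5% were called. The groups did not overlap for 31 members that were higher and 9 that were lower, against 15.8% of all genes. The median log2 fold change was 0.16 over the members and 0.11 over all genes tested. This comparison, the first and the next 2 share the NEMOIEC-KO libraries and are not independent of each other.

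Slc5a9 was at 2.25, 2.46, 2.46, 2.85 and 3.23 FPKM in the Il12b-labelled mice, all below the lowest NEMOIEC-KO mouse at 8.51 FPKM, a log2 fold change of -1.96 (limma adjusted p = 0.000107). Slc51b was at 8.28, 9.59, 11.2, 13.5 and 15.4 FPKM, again all below NEMOIEC-KO, and fell by 1.77 on the log2 scale (limma adjusted p = 0.00391). Slc16a3 was at 7.23, 8.39, 12.7, 13.8 and 15.8 FPKM and fell by 1.26 on the log2 scale (limma adjusted p = 0.0023). In these 3 members even mouse 2, which stood apart elsewhere, was below the NEMOIEC-KO range. Slc2a1 (45.8 to 63.0 FPKM) and Slc45a3 were lower as well. Slc4a11 fell by 1.74 on the log2 scale, with mouse 2 at 6.63 FPKM and the others at 0.280 to 1.26 FPKM. Its high level in NEMOIEC-KO helped to make it a member, which favours a fall from that group.

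Among the higher members, Slc25a29, which carries basic amino acids into mitochondria, was at 2.90, 2.97, 3.19, 3.68 and 4.43 FPKM in the Il12b-labelled mice and at 1.02, 1.05, 1.24, 1.30 and 1.68 FPKM in NEMOIEC-KO. The groups did not overlap, and it rose by 1.16 on the log2 scale (limma adjusted p = 0.000102). Slc16a11, Slc27a1, Slc1a5, Slc29a1 and Slc25a42 were also higher, with log2 fold changes of 1.32, 0.90, 0.70, 0.69 and 1.11. Slc20a1 was at 75.9, 142, 159, 196 and 239 FPKM and rose by 1.5 on the log2 scale (limma adjusted p = 0.0102), with mouse 2 lowest and within the NEMOIEC-KO range. Slc30a10 was at 3.09, 3.36, 5.25 and 6.78 FPKM in 4 mice and at 0.0773 FPKM in mouse 2, and its log2 fold change was 2.29 (limma adjusted p = 0.0117). Slc26a3 was at 465 to 513 FPKM in 4 mice and at 61.2 FPKM in mouse 2, with a log2 fold change of 1.44 and no call (limma adjusted p = 0.0552). Without the 2 mice that stood apart its log2 fold change was 2.04 (limma adjusted p = 0.00113). Leaving out mouse 2, which was within the NEMOIEC-KO range, favours a larger difference. Slc4a4 was at 2.16 to 9.41 FPKM and its log2 fold change against NEMOIEC-KO was 0.18 (limma adjusted p = 0.742).

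With median-of-ratios scaling the split in this comparison was 26 higher and 20 lower, or 56.5% higher in place of 71.7%. Without the 2 mice that stood apart, 60 members were higher and 21 lower, and within the 1 library code that holds all Il12b-labelled mice and 2 NEMOIEC-KO mice 24 members passed. Slc16a3, Slc51b, Slc4a11, Slc20a1, Slc1a5 and Slc25a42 were not among those 24. Shares of all genes called under these fits are not given, so the changed counts are not a result about the members alone. The summed level of absorptive colonocyte markers was 3758 to 7932 FPKM in the Il12b-labelled mice (2 of 8 higher and 3 lower than in NEMOIEC-KO), and that of epithelium markers 11850 to 15610 FPKM (1 of 10 higher and 4 lower). Neutrophil markers summed to 1.06 to 48.5 FPKM (3 of 6 lower) and T cell markers to 3.60 to 22.8 FPKM (3 of 5 lower). With the epithelium markers as a covariate 26 members passed, and Slc16a11, Slc29a1, Slc20a1, Slc51b, Slc4a11 and Slc30a10 did not. The part of these cell types was not tested.

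**Figure D3:**
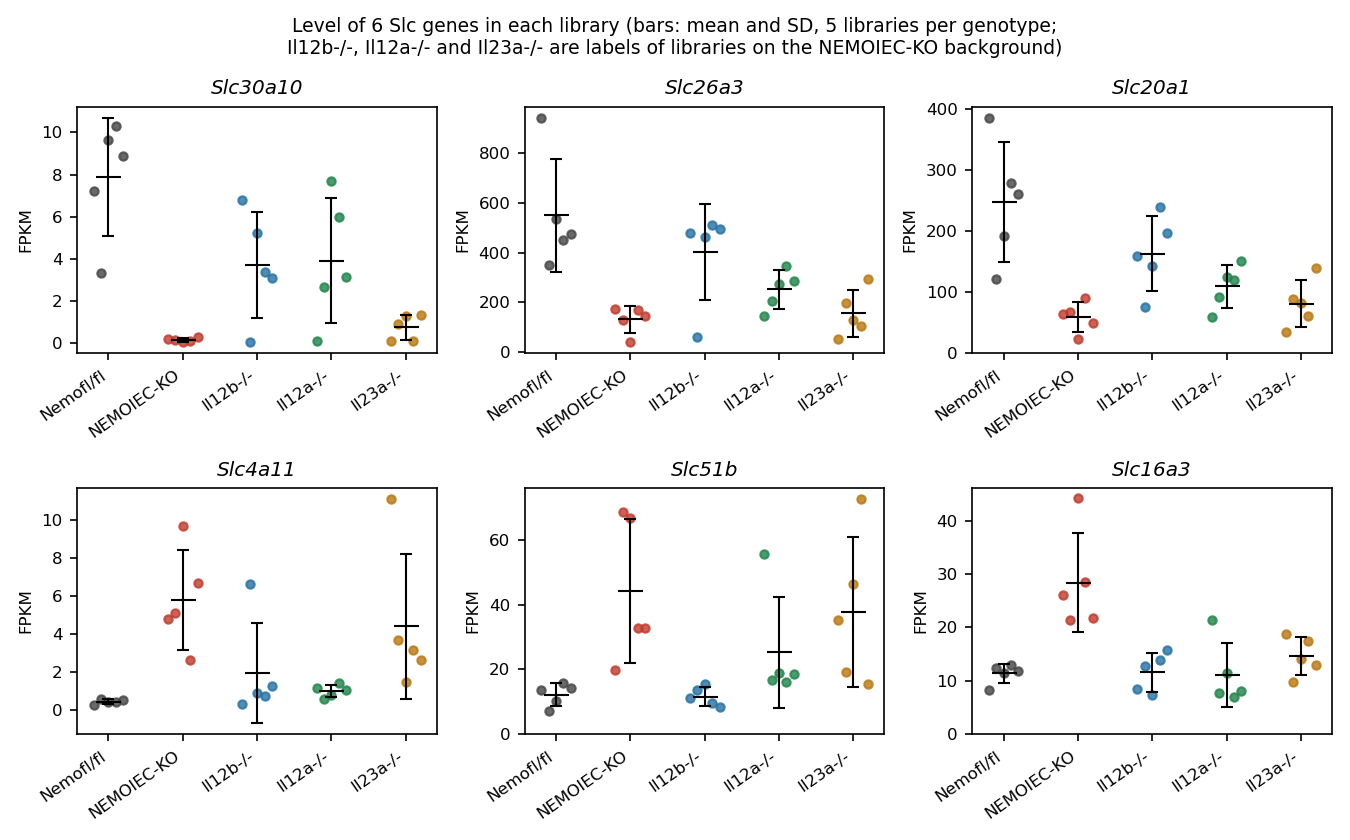
Level of 6 Slc genes in each of the 25 libraries (y axis, FPKM) by genotype; each point is 1 mouse, and the bars give the mean and SD of 5 mice. Slc30a10 was at 0.0665 to 0.315 FPKM in the NEMOIEC-KO mice and at 3.31 to 10.3 FPKM in the Nemofl/fl mice, and the Il12b- and Il12a-labelled groups each held 1 mouse in the NEMOIEC-KO range.

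The third comparison asked the same of p35. In Il12a-labelled mice 22 members were higher and 11 lower than in NEMOIEC-KO, or 16.2% of the 204, against 9.61% of all genes called (5.61% higher and 4% lower). Of all genes with a mean of at least 2 FPKM, 11.6% were called. The groups did not overlap for 10 members that were higher and 4 that were lower, against 5.15% of all genes. Slc35f2 was at 6.49, 6.75, 7.00, 7.02 and 7.57 FPKM in the Il12a-labelled mice and at 3.88 to 5.49 FPKM in NEMOIEC-KO, and it rose by 0.53 on the log2 scale (limma adjusted p = 0.00324). Slc25a24, another mitochondrial ATP-magnesium/phosphate carrier, was at 29.6, 30.2, 31.1, 31.4 and 33.8 FPKM against 40.8 to 54.6 FPKM in NEMOIEC-KO. It fell by 0.55 on the log2 scale (limma adjusted p = 0.00812), and it was not called between NEMOIEC-KO and Nemofl/fl. The controls were at 34.2 to 56.1 FPKM.

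Slc16a3 was at 6.98, 7.72, 7.99, 11.5 and 21.3 FPKM in the Il12a-labelled mice and fell by 1.39 on the log2 scale (limma adjusted p = 0.00405). Slc4a11 was at 0.588 to 1.42 FPKM, below every NEMOIEC-KO mouse, and fell by 1.98 on the log2 scale (limma adjusted p = 0.0113). As Slc4a11 is a member only through the groups in which it was high, NEMOIEC-KO among them, a fall from NEMOIEC-KO was favoured by the member rule. Slc30a10 was at 0.117, 2.67, 3.12, 6.00 and 7.68 FPKM, where the lowest value is mouse 1, and its log2 fold change was 2.32 (limma adjusted p = 0.022). This call was lost without NEMOIEC-KO mouse 3 or any 1 of Il12a-labelled mice 2 to 5 (limma adjusted p = 0.0514 to 0.0732). Slc51b was at 16.0 to 19.0 FPKM in 4 mice and at 55.9 FPKM in mouse 1 and was not called (limma adjusted p = 0.171). Slc5a9, with 3.67 to 13.7 FPKM, was not called either (limma adjusted p = 0.115), nor was Slc26a3, with 145 to 345 FPKM (limma adjusted p = 0.196). Without the 2 mice that stood apart, Slc51b, Slc5a9 and Slc26a3 were called, with log2 fold changes of -1.16, -0.93 and 1.21 (limma adjusted p = 0.0306, 0.0185 and 0.0336). The 2 mice were picked after member levels were seen, so these 3 calls were favoured by that choice.

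The calls of this comparison depended on single libraries and on the fit. Leaving out Il12a-labelled mouse 1 gave 63 members, leaving out mouse 2, 3, 4 or 5 of that group gave 12, 14, 15 and 14, and leaving out NEMOIEC-KO mouse 2 or 3 gave 16 and 18. Without the 2 mice that stood apart there were 45 higher and 29 lower, within 1 library code there were none, and median-of-ratios scaling gave 13 higher and 14 lower, or 48.1% higher in place of 66.7%. Fitting only the 2 groups gave 8 members. As shares of all genes under these fits are not given, the counts do not show a change particular to the members. Smooth muscle markers summed to 2478 to 11980 FPKM in the Il12a-labelled mice (none of 10 called by limma against NEMOIEC-KO, 8 at an unadjusted p under 0.05), epithelium markers to 12340 to 16010 FPKM (3 of 10 lower) and neutrophil markers to 1.48 to 67.7 FPKM (2 of 6 lower). With the smooth muscle markers as a covariate 2 members passed, and Slc16a3, Slc4a11, Slc25a24 and Slc30a10 did not. With the epithelium markers 9 passed.

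The fourth comparison asked the same of p19. Between Il23a-labelled and NEMOIEC-KO mice limma called none of the 204 members, against 0.083% of all genes. At an unadjusted p under 0.05 there were 31 members, and the lowest adjusted p was 0.0932, for Slc5a9. The groups did not overlap for 2 members that were higher and 3 that were lower, against 2.02% of all genes. Slc5a9 was at 3.47, 3.61, 4.44, 5.73 and 6.95 FPKM in the Il23a-labelled mice, below the lowest NEMOIEC-KO mouse, and its log2 fold change was -1.23. Slc16a3 was at 9.79, 13.0, 14.1, 17.5 and 18.8 FPKM, also below all NEMOIEC-KO mice, with a log2 fold change of -0.91 (limma adjusted p = 0.152). Slc30a10 was at 0.110, 0.122, 0.912, 1.28 and 1.33 FPKM, which overlapped NEMOIEC-KO and lay below all controls. Slc4a11 was at 1.48 to 11.1 FPKM and Slc51b at 15.5 to 72.9 FPKM, both across the NEMOIEC-KO range.

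Against Nemofl/fl, 53 members were lower and 25 higher in the Il23a-labelled mice, against 29.5% of all genes called (17% lower and 12.6% higher). That was 38.2% of the members, beside 33.6% of all genes with a mean of at least 2 FPKM. This comparison and the first share the Nemofl/fl libraries, and values from both are given side by side. The log2 fold change of Slc30a10 was -2.82 in the Il23a-labelled mice and -3.58 in NEMOIEC-KO, that of Slc37a2 was -2.03 and -1.87, that of Slc26a3 -1.96 and -2.13, and that of Slc20a1 -1.65 and -2.1. Slc15a1 was at 11.6, 18.3, 28.9, 60.9 and 62.0 FPKM in the Il23a-labelled mice, below every control, with a log2 fold change of -1.71 (limma adjusted p = 0.0114). Among the higher members the log2 fold change was 2.14 and 2.67 for Slc4a11, 1.77 and 1.92 for Slc15a3, and 1.43 and 1.72 for Slc51b. Slc4a11 is a member only through the groups in which it was high, which favours a rise over the controls. The same holds for Slc15a3, which was below 2 FPKM in the controls and became a member through groups in which it was higher. The amino acid transporter Slc1a4 was at 3.61, 4.49, 5.25, 6.75 and 7.49 FPKM in the Il23a-labelled mice against 2.35 to 3.13 FPKM in the controls, a log2 fold change of 0.88 (limma adjusted p = 0.00281). By substrate, 6 of 8 phosphate and calcium carriers were lower and none higher, 11 of 36 mitochondrial carriers were lower and 5 higher, and 6 of 21 nucleotide sugar carriers were higher and 4 lower. With the smooth muscle markers as a covariate 4 members passed, with the epithelium markers none, and with sex as a covariate 12. Of this group 4 mice were female by RNA, and none of the controls.

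**Figure D4:**
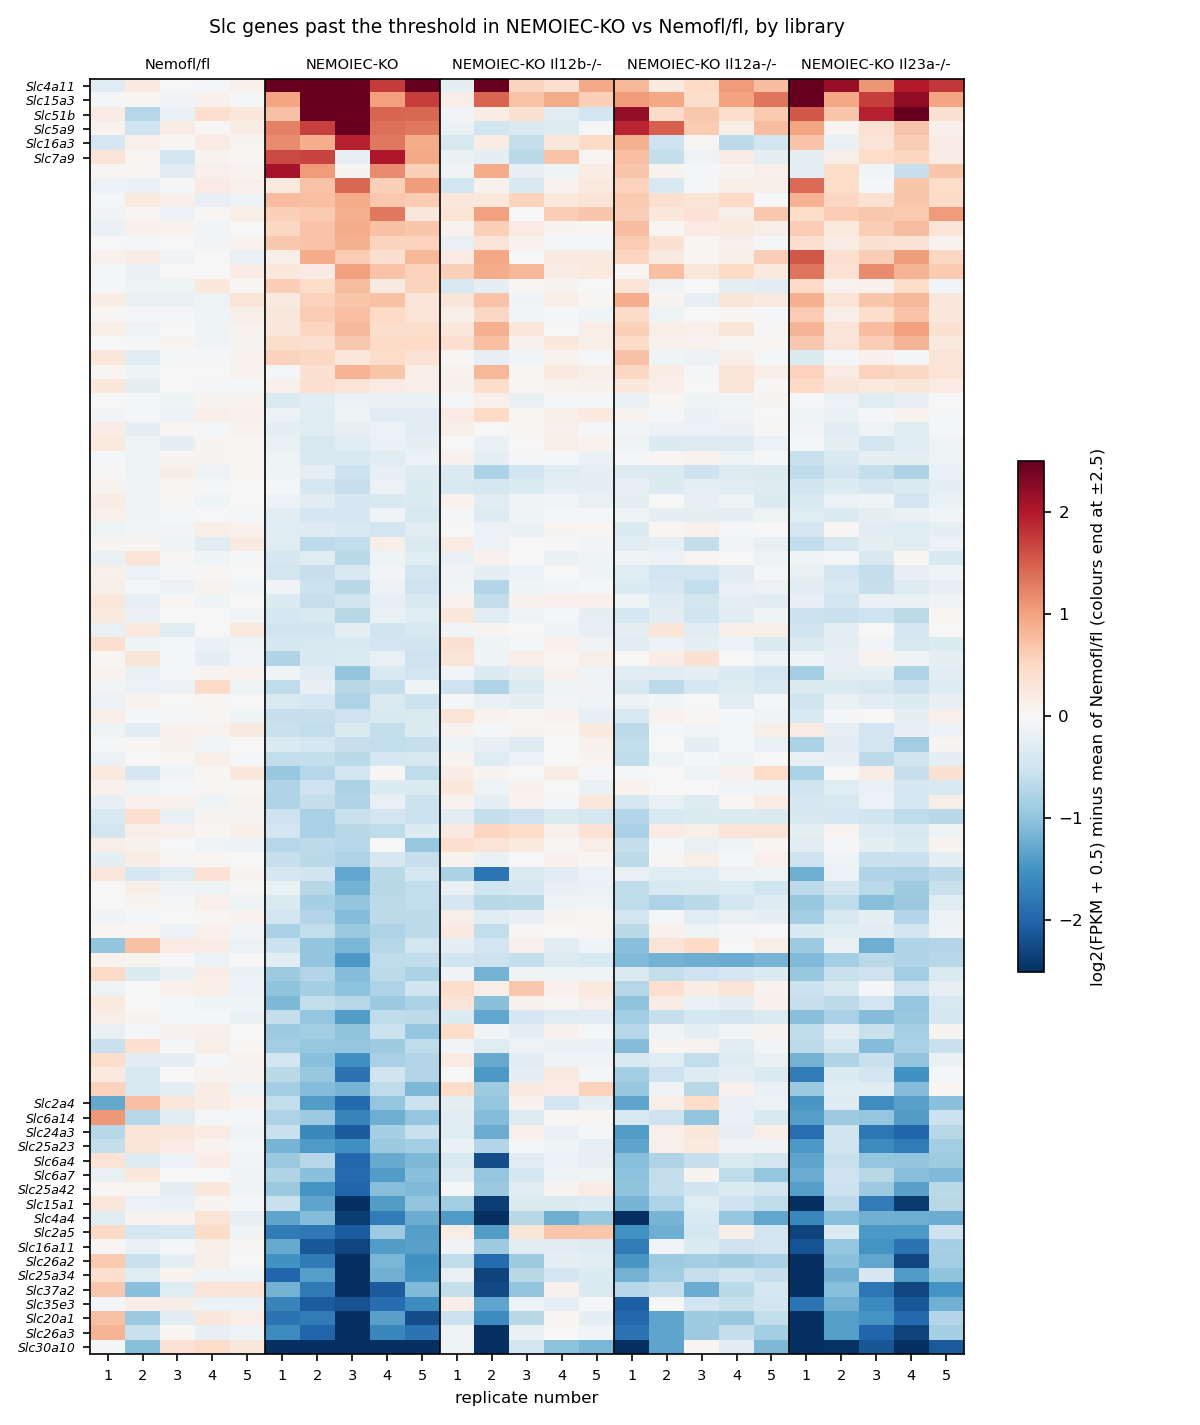
Log2 difference from the Nemofl/fl mean of the 89 Slc genes called between NEMOIEC-KO and Nemofl/fl mice, in each of the 25 libraries; columns are mice by genotype and rows are genes, with the colour scale giving the log2 difference, and genes are labelled where the NEMOIEC-KO mean differed by at least 1. Over the genes that were lower, Il12b-labelled mouse 2 and Il12a-labelled mouse 1 had median differences of -0.50 and -0.64, and the NEMOIEC-KO mice of -0.93 to -0.55. The genes were chosen by their difference in NEMOIEC-KO, so the NEMOIEC-KO medians are negative by that choice.

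In Il12b-labelled mice limma called none of the 204 members against Nemofl/fl, with 0.369% of all genes called, 40 members at an unadjusted p under 0.05 and a lowest adjusted p of 0.0604. In Il12a-labelled mice 3 members were called against Nemofl/fl, with 1.34% of all genes called. Fitting only the 2 groups gave 22, the smooth muscle covariate 10, the epithelium covariate and the sex covariate 1 each, and leaving out the 2 mice that stood apart 4. Slc16a1 was at 35.6, 35.9, 37.1, 37.5 and 39.2 FPKM in the Il12a-labelled mice, below every mouse of the control group, and its log2 fold change was -1.18 (limma adjusted p = 2.18e-05). Slc7a6os was among the other 2, with a log2 fold change of 0.29. Slc16a1 was at 55.8, 58.0, 59.4, 63.7 and 66.6 FPKM in the Il12b-labelled mice and at 39.1, 46.6, 49.99, 52.1 and 52.7 FPKM in the Il23a-labelled mice. In order of mean level the groups ran Nemofl/fl (84.7 ± 5.61 FPKM), Il12b-labelled (60.7 ± 4.39), NEMOIEC-KO (50.6 ± 14.8), Il23a-labelled (48.1 ± 5.59) and Il12a-labelled (37.1 ± 1.44). No neighbouring pair in this order was called by limma, Nemofl/fl and the Il12b-labelled group did not overlap, and the other neighbours did. Slc16a1 was the member with the lowest p of an F test over all 5 genotypes (limma adjusted p = 3.09e-05).

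Slc4a4 was below the lowest control, 12.5 FPKM, in every mouse of the other 4 groups. Its means were 5.23 ± 1.79 FPKM in NEMOIEC-KO, 6.24 ± 2.73 in the Il12b-labelled, 6.84 ± 3.43 in the Il12a-labelled and 6.19 ± 0.869 in the Il23a-labelled group. Against Nemofl/fl it was called in NEMOIEC-KO and in the Il23a-labelled group (limma adjusted p = 0.00922), and not in the Il12b-labelled (limma adjusted p = 0.071) or Il12a-labelled group (limma adjusted p = 0.0564). Without the 2 mice that stood apart these were 0.0545 and 0.0364, so that Slc4a4 was called in the Il12a-labelled group.

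Between the groups with a cytokine mutation few members differed. Slc16a1 was lower in Il12a-labelled than in Il12b-labelled mice, with a log2 fold change of -0.70 (limma adjusted p = 0.0123) and no overlap, and was the only member called there, against 0.41% of all genes. Between Il23a-labelled and Il12b-labelled mice Slc51b was higher (log2 fold change 1.48, limma adjusted p = 0.0354) and 7 members were lower, against 5.11% of all genes called (1.93% higher and 3.18% lower). These 7 were Slc35e3, Slc16a11, Slc25a23, Slc25a42, Slc25a29, Slc35f2 and Slc37a4, with log2 fold changes of -1.28, -1.08, -0.97, -0.77, -0.67, -0.37 and -0.28. Without Il12b-labelled mouse 2 this count was 41, and without mouse 1 of that group it was 0. Between Il23a-labelled and Il12a-labelled mice limma called none, with 45 members at an unadjusted p under 0.05 and 1.16% of all genes called. Without the 2 mice that stood apart the counts of these last 2 comparisons were 51 and 32. Over all 5 genotypes the F test called 88 of the 204 members, or 43.1%, against 30.3% of all genes. With the smooth muscle covariate this count was 39 and with the epithelium covariate 10.

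A list of 42 other transport genes, among them ion pumps, channels, aquaporins and carbonic anhydrases, was read beside the Slc genes. In NEMOIEC-KO against Nemofl/fl 3 were higher and 15 lower, beside 32.2% of all genes called. In Il12b-labelled against NEMOIEC-KO 11 were higher and 2 lower (19.9% of all genes), and in Il12a-labelled against NEMOIEC-KO 5 were higher and 2 lower (9.61%). In Il23a-labelled mice limma called none against NEMOIEC-KO (0.083%), with 6 at an unadjusted p under 0.05, and 2 were higher and 12 lower than in Nemofl/fl (29.5%). The water channel Aqp8 was at 611 ± 117 FPKM in Nemofl/fl and at 207 ± 123 FPKM in NEMOIEC-KO (limma adjusted p = 0.0323), and Aqp4, another water channel, was at 11.0 ± 5.87 and 25.0 ± 7.20 FPKM (limma adjusted p = 0.0321). The epithelial sodium channel subunit Scnn1a was at 82.7 ± 6.61 and 58.5 ± 15.0 FPKM (limma adjusted p = 0.0499). Lower adjusted p were found among the genes that fell. Kcnq1 was at 27.2 ± 2.39 and 11.0 ± 1.74 FPKM (limma adjusted p = 3.72e-07). Aqp11 was at 9.68 ± 0.725 and 4.54 ± 0.940 FPKM (limma adjusted p = 2.37e-05). Aqp8, Car1 and Car4 are also absorptive colonocyte markers, so these lists are not separate readings. The values of the genes named from this list were seen before they were named.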

How the data were processed

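Distal colon RNA from 25 mice was sequenced as stranded poly-A libraries, paired-end, per the labels' protocols. The authors deposited 1 table of FPKM values with 1 column per mouse. TopHat2 2.0.10, Cufflinks 2.1.1, DESeq2 1.10.1 and the build GRCm38 are named in the submitters' processing notes, and the annotation release and strand setting are not given in the sources used here. Read counts were not analysed here, so absolute depth is unknown and no count test was made. All 25 columns matched a sample, no 2 libraries held identical values (highest correlation 0.9897), and 49109 of 49452 gene identifiers matched a symbol and a position in GENCODE (GRCm38).

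The 19266 genes that reached 0.2 FPKM in 5 or more libraries, all 204 members among them, were fitted with limma 3.58.1 in R 4.3.3 on log2(FPKM + 0.5), with 1 mean per genotype, an intensity trend and all 25 libraries, tested in 10 comparisons and an F test, and checked on simulated data. Differences are the first-named group minus the second, and the threshold was an adjusted p of 0.05. The members, lists and tests were chosen with earlier results of these data known. Members named are the 8 largest called changes without overlap in each direction of the 4 comparisons with NEMOIEC-KO or of NEMOIEC-KO (3 in the other 6), with a higher group of at least 2 FPKM, the 10 highest, the highest of each family with at least 5 members, 28 of 32 listed textbook genes, and those beside the limit of 2 FPKM, 69 members in all. Alternatives were other pseudocounts, filters and scalings, 2-group fits, a replicate block, 1 library code, leaving out each mouse, and, chosen after seeing the data, covariates for sex, smooth muscle and epithelium and leaving out 2 mice. Some members counted in the totals are not reported here by name.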

Additional observations from a re-analysis of the deposited data

Results flagged for a closer look

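In 28 of 345 groups of 5 mice for the named members, 1 mouse lay further from the others than Dixon's 95% limit, where chance gives about 1 in 20. Il12b-labelled mouse 2 accounted for 9 of these. It was the outlying mouse for Slc4a11 (6.63 FPKM, nearest other mouse 1.26), Slc26a3 (61.2, nearest 465), Slc25a23 (12.2, nearest 17.7), Slc35c1 (171, nearest 111), Slc7a7 (30.3, nearest 19.6), Slc22a18 (68.4, nearest 59.7), Slc5a1 (22.9, nearest 48.2), Slc12a2 (26.5, nearest 21.8) and Slc39a4 (125, nearest 60.8). Il12a-labelled mouse 1 accounted for 5, namely Slc51b (55.9, nearest 19.0), Slc26a2 (50.5, nearest 74.3), Slc35e4 (2.70, nearest 5.67), Slc28a3 (9.34, nearest 4.54) and Slc39a4 (186, nearest 73.4).

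Nemofl/fl mouse 1 accounted for 5, namely Slc35e4 (3.58, nearest 5.24), Slc4a2 (49.5, nearest 35.9), Slc6a14 (208, nearest 95.5), Slc11a2 (17.8, nearest 15.1) and Slc25a32 (2.78, nearest 2.13). Nemofl/fl mouse 2 was low for Slc5a9 (2.18, nearest 3.38). In NEMOIEC-KO, mouse 3 was high for Slc5a9 (25.2, nearest 11.8) and Slc25a37 (10.8, nearest 8.80), mouse 4 for Slc27a1 (11.9, nearest 9.33) and Slc16a13 (3.44, nearest 1.99), and mouse 5 for Slc29a1 (21.6, nearest 18.2). Il12b-labelled mouse 3 was high for Slc25a22 (28.1, nearest 24.0), Il12a-labelled mouse 4 for Slc9a3r1 (226, nearest 183), and Il23a-labelled mouse 1 for Slc4a11 (11.1, nearest 3.68). All values are FPKM.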

How the results depend on the processing

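Counts of members called were within 1.5 times the values reported unless named here, and the causes of changed counts were not tested. Shares of all genes called under these settings are not given, so the counts do not show whether a change was particular to the members. The 10 comparisons are written first group against second. Scaling, filter and pseudocount moved total counts past this limit only where these were small. The split by direction also moved in larger counts with median-of-ratios scaling. It was 30 higher and 56 lower in NEMOIEC-KO against Nemofl/fl. Against NEMOIEC-KO it was 26 and 20 in Il12b-labelled and 13 and 14 in Il12a-labelled mice. With quantile normalization 6 members were called in Il12a-labelled and 1 in Il12b-labelled against Nemofl/fl. The same setting gave 2 in Il12a-labelled against Il12b-labelled and 1 in Il23a-labelled against Il12a-labelled mice. With median-of-ratios scaling the last 2 counts were 2 and 1, and Il23a-labelled against Il12b-labelled gave 5. Without a filter Il12a-labelled against Nemofl/fl gave 1 and Il23a-labelled against Il12b-labelled gave 3, and a pseudocount of 0.1 gave 2 in Il12a-labelled against Il12b-labelled mice. Fitting only the 2 groups compared gave 8 in Il12a-labelled against NEMOIEC-KO, 22 in Il12a-labelled and 2 in Il12b-labelled against Nemofl/fl, and 4 in Il23a-labelled against Il12b-labelled mice. Within 1 library code Il12b-labelled against NEMOIEC-KO gave 24 and Il12a-labelled against NEMOIEC-KO gave 0, with 2 NEMOIEC-KO mice. With the smooth muscle covariate NEMOIEC-KO against Nemofl/fl gave 44, Il23a-labelled against Nemofl/fl 4, Il12a-labelled against Nemofl/fl 10, Il12b-labelled against Nemofl/fl 1, Il12a-labelled and Il23a-labelled against NEMOIEC-KO 2 and 3, Il12a-labelled and Il23a-labelled against Il12b-labelled 2 and 1, and the F test 39. With the epithelium covariate the same comparisons with Nemofl/fl gave 4, 0 and 1 (NEMOIEC-KO, Il23a-labelled, Il12a-labelled), those with NEMOIEC-KO gave 26, 9 and 1 (Il12b-, Il12a- and Il23a-labelled), Il23a-labelled against Il12b-labelled gave 0 and the F test gave 10, and Slc7a7 reversed to -0.005. With sex as a covariate Il23a-labelled and Il12a-labelled against Nemofl/fl gave 12 and 1, and Il12a-labelled and Il23a-labelled against Il12b-labelled gave 2 and 5. Without Il12b-labelled mouse 2 and Il12a-labelled mouse 1 together, Il12a-labelled against NEMOIEC-KO gave 74, Il23a-labelled against Il12b-labelled 51 and Il23a-labelled against Il12a-labelled 32. Replicate numbers did not pair the mice (median correlation 0.0071 for equal and 0.00856 for unequal numbers), and with a replicate block Il12a-labelled against Nemofl/fl gave 5 and NEMOIEC-KO against Nemofl/fl gave 89. Leaving out each mouse in turn gave 68 to 91 in NEMOIEC-KO against Nemofl/fl, 44 to 75, 12 to 63 and 0 to 0 in Il12b-, Il12a- and Il23a-labelled against NEMOIEC-KO, 0 to 0, 1 to 3 and 47 to 85 in the same groups against Nemofl/fl, 1 to 2 and 0 to 41 in Il12a- and Il23a-labelled against Il12b-labelled, 0 to 28 in Il23a-labelled against Il12a-labelled mice and 69 to 102 in the F test; the lowest of the 47 to 85 came without Il23a-labelled mouse 4. Of 92 results for single named members, 49 stayed past the threshold in every planned setting; 63 were no longer past it with the epithelium covariate, 39 with the smooth muscle covariate and 35 of 90 within 1 library code. The 95% interval of a member's log2 fold change had a median half-width of 0.276, and 6 members had one over 1, so smaller differences were not detectable in these.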

Other observations

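Slc10a7, a relative of the bile acid transporters known for a role in bone and glycosylation, varied widely within 4 of the 5 genotypes. It was at 5.37, 5.66, 7.33, 26.9 and 46.7 FPKM in Nemofl/fl, at 4.91, 4.92, 5.42, 13.8 and 24.6 FPKM in NEMOIEC-KO, and at 6.83, 13.7, 15.7, 16.6 and 49.5 FPKM in the Il12b-labelled mice. In the Il12a-labelled mice it was at 4.54, 5.25, 5.81, 21.3 and 25.2 FPKM. All 5 Il23a-labelled mice were at 5.28 to 6.92 FPKM. No comparison called it.

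Slc34a2, a sodium-phosphate cotransporter, was at 5.57 to 16.8 FPKM in Nemofl/fl, at 0.604 to 9.77 FPKM in NEMOIEC-KO and at 1.5, 1.5, 1.72, 2.63 and 2.91 FPKM in the Il12b-labelled mice, all below the controls. In the Il23a-labelled mice it was at 0.773 to 4.38 FPKM, with a log2 fold change against Nemofl/fl of -1.72 (limma adjusted p = 0.0142). Against Nemofl/fl it was not called in NEMOIEC-KO (limma adjusted p = 0.173). Slc12a8 was at 17.0 to 25.1 FPKM in the Il23a-labelled mice and at 9.84 to 14.6 FPKM in Nemofl/fl (log2 fold change 0.74, limma adjusted p = 0.00403), and at 11.1 to 16.9 FPKM in NEMOIEC-KO, where it was not called. These 3 members were named after their values were seen.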
